A study of Rattus norvegicus with 32 samples.

Results

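The transcripts described here belong to 7 genes of 2 small families of activity-induced transcription factors, Egr1, Egr2, Egr3 and Egr4 and Nr4a1, Nr4a2 and Nr4a3. They were picked by symbol from the 32883 genes of 2 raw count tables of rat hippocampus, and the choice was made with fits of the diet contrasts of these counts already known. The fold changes between diet groups are therefore given as a description. Counts of members past a threshold, adjusted or not, stand beside the share of all genes that passed it, and they are not independent evidence about these 7 genes. All 7 genes stood on a single row of each table and all 7 passed edgeR's filter on low counts in every comparison.

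The early growth response (Egr) genes code for zinc finger factors that bind GC-rich sites, and the Nr4a genes code for orphan nuclear receptors that act without a known natural ligand. In neurons both families are transcribed within minutes of synaptic activity and calcium entry, without new protein synthesis, through serum response factor (SRF) with its Elk partners, through CREB and through MEF2. In the hippocampus they are known for their part in long-lasting synaptic plasticity and memory, and they are among the genes used as a record of recent neuronal activity. Egr1 (also Zif268) is the most studied of them in memory consolidation, Egr2 (Krox20) also drives myelination by Schwann cells, and Egr3 lies downstream of several of the same signals. Nr4a1 (Nur77), Nr4a2 (Nurr1) and Nr4a3 (Nor1) have been linked to memory formation in the hippocampus, and Nr4a2 is also required for midbrain dopamine neurons.

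Hippocampal RNA came from 32 Sprague-Dawley rats aged 65 days, 16 males and 16 females, and each sex had 4 groups of 4 rats. IS rats were born to dams on an iron-sufficient diet. ISch rats had such dams with added choline in gestation. FID rats, labelled ID, were formerly iron-deficient, which the study brought about through the dam's diet in gestation and the first days after birth, and FIDch rats, labelled IDch, had iron-deficient dams that also received the choline. All groups were on iron-sufficient diets well before the hippocampus was taken, so none was on an experimental diet at that time. The study describes a single male per litter, and its description does not cover how the females were drawn from litters. Where rats are not from separate litters, the spread between libraries includes that sharing. All males carry the label sequencing batch I and all females batch II, and a difference between the sexes is thus a difference between batches as well.

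The male libraries held 3515806 to 9517503 counts and the female libraries 18439999 to 26616318. A count of 0 would allow 3 counts, or 0.315 to 0.853 CPM (counts scaled to a common library size) in males and 0.113 to 0.163 CPM in females, by counting error alone. The members were well above this, with 11 to 59 counts per male library for Egr2, the sparsest, and 466 to 1259 for Egr1. In a check of the labelled tissue, neuron markers (Rbfox3, Snap25, Syt1, Camk2a) summed to 5403 to 6506 CPM, and markers of CA1, of CA2 and CA3 and of the dentate gyrus were present in every library. Of the dentate markers, Tdo2 had no count in male ISch, FID and FIDch. In 1 male library, FID replicate 4, choroid plexus markers summed to 375 CPM, against 2.20 to 16.8 CPM in the other male libraries.

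Promoter sequences are shown first, because they hold the elements through which these genes are known to be induced. RefSeq entries for assembly GRCr8 were found for 5 of the 7 genes (Egr1, Egr2, Egr4, Nr4a1 and Nr4a2). The counts were made on Rnor_6.0, so these positions serve only to place the sequences. Each line gives the 250 bases before the annotated start site, 5′ to 3′ on the gene's strand. Capitals mark every match on either strand to the CArG box, the SRF element, or to the letters TGACG, the start of the CREB site TGACGTCA. From the other strand TGACG reads CGTCA. Also marked in this way are GCGNGGGCG, a binding site of Egr factors, and AAAGGTCA, the element bound by single Nr4a molecules.
Egr1, chr18:26736828-26737077, plus strand: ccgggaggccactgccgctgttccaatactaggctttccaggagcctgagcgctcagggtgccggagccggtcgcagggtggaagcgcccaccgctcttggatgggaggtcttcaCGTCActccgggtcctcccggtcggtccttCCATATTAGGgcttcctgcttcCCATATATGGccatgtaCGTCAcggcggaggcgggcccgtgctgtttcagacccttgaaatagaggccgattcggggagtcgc
Egr2, chr20:21054442-21054691, minus strand: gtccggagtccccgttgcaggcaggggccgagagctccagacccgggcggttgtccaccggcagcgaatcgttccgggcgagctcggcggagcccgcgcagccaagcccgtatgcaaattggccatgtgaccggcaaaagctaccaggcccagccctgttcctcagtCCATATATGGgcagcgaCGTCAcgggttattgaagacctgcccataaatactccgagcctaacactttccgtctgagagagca
Egr4, chr4:119607818-119608067, minus strand: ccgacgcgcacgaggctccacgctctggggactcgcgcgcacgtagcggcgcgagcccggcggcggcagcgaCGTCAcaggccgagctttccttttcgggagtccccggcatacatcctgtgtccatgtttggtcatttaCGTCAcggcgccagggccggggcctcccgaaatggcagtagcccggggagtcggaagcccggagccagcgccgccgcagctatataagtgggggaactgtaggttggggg
Nr4a1, chr7:134259888-134260137, plus strand: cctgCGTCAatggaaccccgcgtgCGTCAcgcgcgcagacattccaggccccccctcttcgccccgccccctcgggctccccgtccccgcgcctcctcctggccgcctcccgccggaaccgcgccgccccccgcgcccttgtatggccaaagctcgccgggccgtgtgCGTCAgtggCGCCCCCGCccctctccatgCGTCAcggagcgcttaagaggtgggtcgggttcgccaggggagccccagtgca
In the Egr1 window, CArG boxes began 105 and 83 bases before the start site, and the Egr2 window held a CArG box that also began at -83. In both genes a CGTCA began at -66, downstream of that box. The CArG box occurred in 1.64% of the 33469 RefSeq promoter windows of 300 bases, each reaching 50 bases past its start site, and in 2 of the 5 members' windows. TGACG occurred in all 5 windows and in 21.2% of all windows. In the Egr4 window it began at -178 and -110, in Nr4a1 at -246, -226, -82 and -53, all on the opposite strand, and in the window of Nr4a2, which is not printed, once at -8. The 8-base palindrome TGACGTCA, found in 1.83% of windows, was in none of the 5, and neither was AAAGGTCA, found in 1.43%. Nr4a1 had a match to GCGNGGGCG on the opposite strand at -73, a motif in 4.98% of windows. These are matches of letters, and occupancy was not measured in the data used here.

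Levels of the members are given as CPM after TMM scaling, which sets the scale of a library so that most genes have equal levels. They are compared between libraries for one gene and not between genes, since gene lengths were not at hand. In males, Egr1 had 85.8, 97.5, 95.3 and 141 CPM in the 4 IS libraries, 81.9, 91.1, 137 and 131 CPM in ISch, 95.9, 124, 90.1 and 105 CPM in FID, and 117, 132, 111 and 114 CPM in FIDch. The 4 groups overlapped, and the highest library of each was IS replicate 4, ISch replicate 3, FID replicate 2 and FIDch replicate 2. Egr2 had 3.12, 2.29, 3.02 and 6.31 CPM in male IS, 1.33, 2.73, 7.37 and 4.15 CPM in ISch, 2.76, 4.85, 1.76 and 2.64 CPM in FID, and 3.65, 7.63, 3.75 and 4.17 CPM in FIDch. The same 4 libraries led, and the value of FIDch replicate 2 rested on 27 counts in the smallest library of the series. Nr4a1 had 34.6, 34.6, 37.5 and 73.7 CPM in male IS, 32.1, 37.6, 56.8 and 50.1 CPM in ISch, 35.6, 51.4, 29.4 and 40.3 CPM in FID, and 58.7, 52.6, 41.7 and 40.1 CPM in FIDch. Here too IS replicate 4, ISch replicate 3 and FID replicate 2 were the highest of their groups, while in FIDch replicate 1 was.

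The other male members spread less or overlapped in the same way. Egr3 lay between 56.2 and 73.5 CPM over the 16 male libraries, Nr4a2 between 43.0 and 79.5 CPM and Nr4a3 between 62.7 and 101 CPM. Egr4 ranged from 11.2 to 24.8 CPM in males, with the highest value again in IS replicate 4. In females Egr4 was lower, from 5.46 to 12.0 CPM, a gap in which sex and sequencing batch cannot be told apart.

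In females, ISch had the highest group mean for every Egr gene. Egr1 had 130, 137, 128 and 115 CPM in IS, 157, 191, 167 and 186 CPM in ISch, 148, 149, 134 and 167 CPM in FID, and 107, 122, 105 and 156 CPM in FIDch. All 4 ISch values were above all 4 IS values, but FID replicate 4 was within the ISch range. FIDch replicate 4 was the highest of its group by a wide margin. Egr2 had 3.99, 3.24, 3.30 and 3.44 CPM in IS, 9.93, 8.21, 8.06 and 8.84 CPM in ISch, 3.45, 3.24, 2.47 and 5.52 CPM in FID, and 2.82, 4.36, 3.90 and 6.30 CPM in FIDch. The ISch libraries lay above all 12 others, on 151 to 203 counts per library against 47 to 137. Egr3 had 68.7, 65.9, 60.4 and 72.5 CPM in IS, 76.0, 85.5, 76.5 and 80.9 CPM in ISch, 66.9, 69.7, 79.7 and 73.9 CPM in FID, and 61.9, 68.2, 71.3 and 63.6 CPM in FIDch. For Egr3 the ISch and IS libraries did not overlap, but FID replicate 3 was within the ISch range. Egr4 had 5.50, 7.88, 5.46 and 7.14 CPM in IS, 9.44, 11.3, 7.15 and 12.0 CPM in ISch, 7.06, 7.21, 9.58 and 9.95 CPM in FID, and 5.96, 6.54, 6.91 and 9.21 CPM in FIDch, and ISch replicate 3 was within the IS range.

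The Nr4a genes of the females had the highest group mean in ISch as well. Nr4a1 had 59.6, 54.5, 50.2 and 63.6 CPM in IS, 63.8, 80.3, 77.4 and 88.6 CPM in ISch, 43.8, 49.6, 47.5 and 48.8 CPM in FID, and 40.5, 36.4, 46.0 and 81.3 CPM in FIDch. The lowest ISch library was just above the highest IS library, the FID libraries were below all IS libraries, and FIDch replicate 4 was far above the rest of its group. Nr4a2 had 43.2, 51.6, 49.8 and 45.6 CPM in IS, 58.2, 72.7, 56.9 and 81.8 CPM in ISch, 57.7, 55.4, 46.9 and 57.8 CPM in FID, and 53.6, 60.0, 43.0 and 65.3 CPM in FIDch. ISch and IS did not overlap, and FID and FIDch lay across both. Nr4a3 had 72.6, 72.0, 65.5 and 74.2 CPM in IS, 100.3, 84.7, 72.2 and 90.4 CPM in ISch, 79.9, 80.6, 80.4 and 100.2 CPM in FID, and 77.0, 87.3, 77.0 and 66.6 CPM in FIDch. The FID libraries were all above the IS libraries, while ISch replicate 3 was within the IS range.

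**Figure D1:**
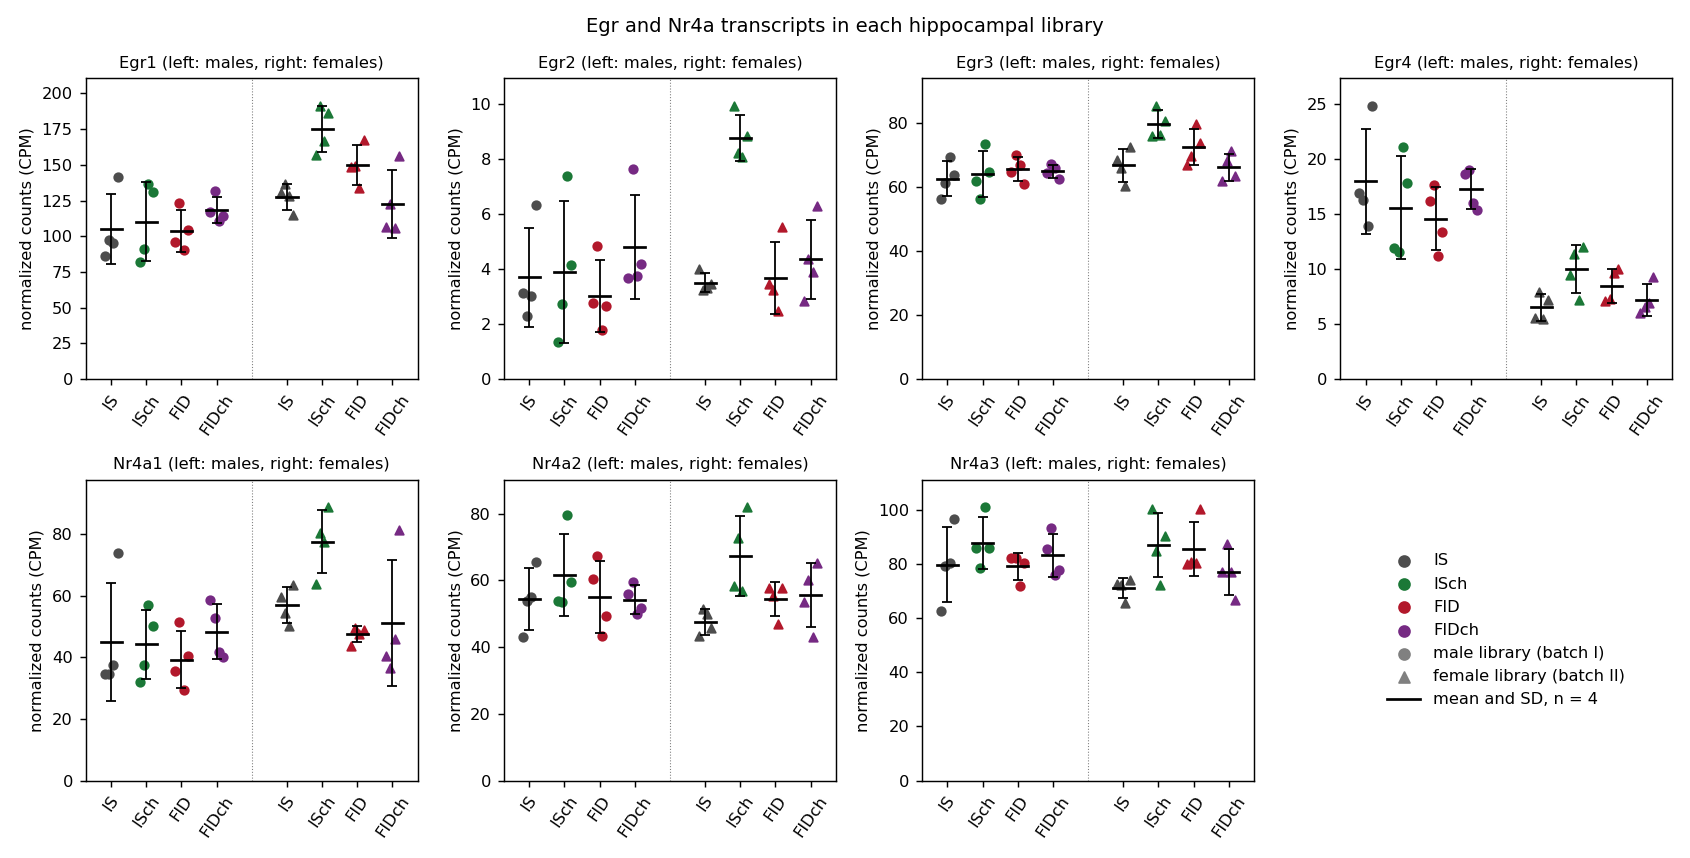
Level of each of the 7 genes (CPM, y axis from 0) in every library, by diet group, males as circles on the left and females as triangles on the right, with the mean and SD of 4 rats in black. The 4 female ISch libraries have 8.06 to 9.93 CPM of Egr2 and lie above the other 12 female libraries, and in males the groups overlap for all 7 genes.

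To ask what prenatal choline did in iron-sufficient offspring, ISch was compared with IS by edgeR's quasi-likelihood test within each sex. The study's criterion for a call was used, under which the log2 fold change must exceed 0.2 in size and the p before adjustment must be under 0.05. In females all 7 members met it with higher levels in ISch, where 10.3% of all 14466 genes tested met it, 5.14% with higher levels. Egr2 had the largest log2 fold change of the 7, 1.33 (standard error 0.12), which is 151% above IS. Egr4 followed with 0.61 (standard error 0.18), Nr4a2 with 0.50 (0.11), Egr1 with 0.46 (0.07) and Nr4a1 with 0.44 (0.10). Nr4a3 and Egr3 had 0.29 (0.09) and 0.25 (0.06), or 22.1% and 19.0% above IS. The median over the 7 was 0.46, and the median over all genes tested was below 0.01 in size. With Benjamini-Hochberg adjustment over all genes, 4 members (Egr1, Egr2, Nr4a1 and Nr4a2) had an adjusted p under 0.05, against 2.54% of all genes. The ISch and IS libraries did not overlap for 5 members (Egr1, Egr2, Egr3, Nr4a1 and Nr4a2), and 5.31% of all genes had all ISch above all IS libraries.

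The call at the criterion held for all 7 in each of the 8 fits without 1 library. The adjusted p was less stable. Egr1 and Egr2 kept it under 0.05 in all 8 of these fits, Nr4a2 in 2 and Nr4a1 in 1, and the number of members with it was 2 without any 1 of the IS libraries, without ISch replicate 2 or without ISch replicate 4. In males none of the 7 members met the criterion in ISch against IS, where 8.06% of 13956 genes did, and none had an adjusted p under 0.05, where 0.208% of genes did. None had an unadjusted p under 0.05 either, and DESeq2 called none. The male log2 fold changes lay between -0.20 for Egr4 and 0.18 for Nr4a2, and the standard error was 0.43 for Egr2 against 0.12 in females. Without male IS replicate 4, Nr4a3 met the criterion.

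The difference between the sexes in the ISch effect, tested in 1 model of the 16 IS and ISch libraries, was below 0 for all 7 members, in the direction of a smaller effect in males. Egr2 differed by -1.24 (standard error 0.47) and Egr4 by -0.81 (0.30) on the log2 scale, both with an unadjusted p under 0.05, as had 15.5% of 15141 genes. The adjusted p of these differences was under 0.05 for none of the members, against 1.28% of genes. Both members lost the unadjusted call without male IS replicate 4, and 5 members had it without male IS replicate 1 or without male ISch replicate 3. Batch and sex cannot be told apart here.

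**Figure D2:**
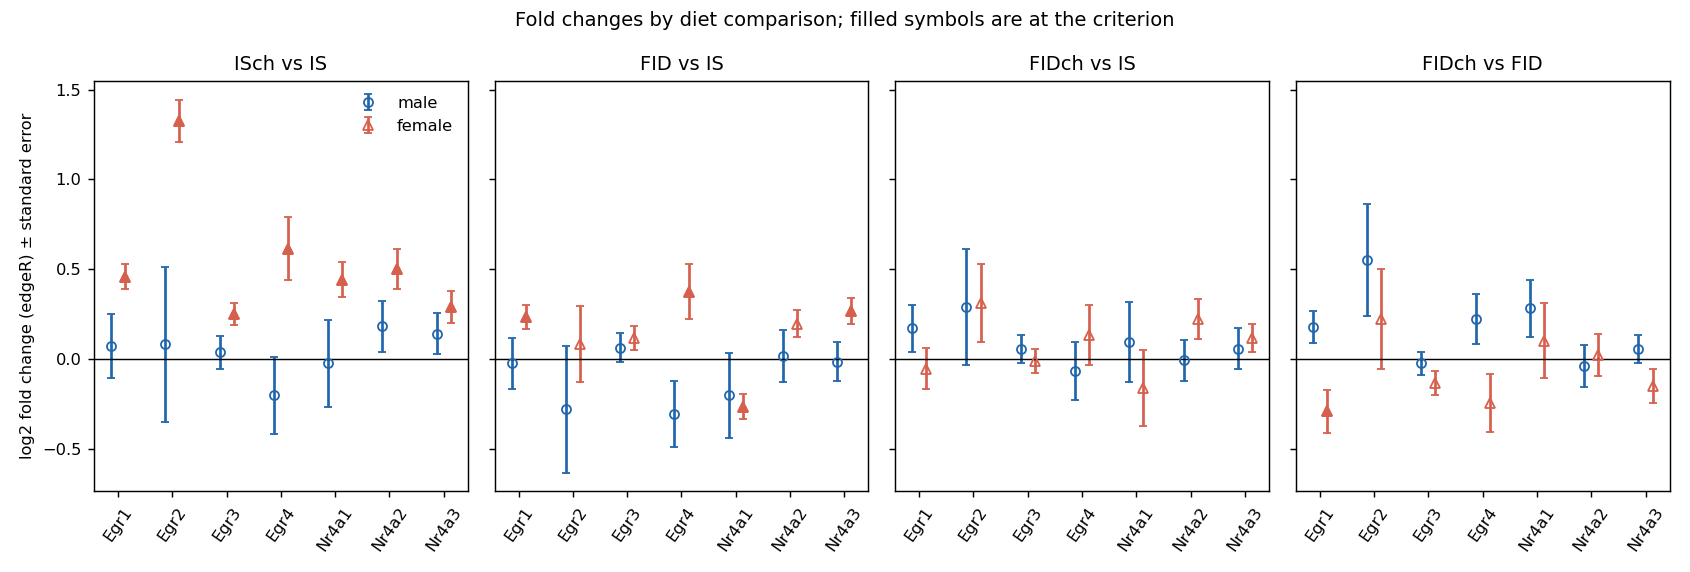
Log2 fold change of the 7 genes from edgeR (y axis, with the standard error as a bar) in 4 diet comparisons, males as blue circles and females as red triangles, filled where the gene was at the criterion. All 7 female symbols are filled in ISch against IS, from 0.25 to 1.33, and no male symbol is filled in any panel.

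Former iron deficiency without choline was examined by comparing FID with IS. In females 4 members met the criterion, where 6.47% of 14632 genes did. Egr1 was higher by 0.23 (standard error 0.07), Egr4 by 0.37 (0.15) and Nr4a3 by 0.26 (0.07) on the log2 scale, and Nr4a1 was lower with a log2 fold change of -0.27 (0.07), so that the 4 did not share a direction. None had an adjusted p under 0.05 by edgeR, where 0.191% of genes did, and 5 members had an unadjusted p under 0.05, as had 11.2% of genes. DESeq2 gave an adjusted p under 0.05 for 2, Nr4a1 and Nr4a3, and for 1.32% of genes. The FID and IS libraries did not overlap for these same 2 members, as for 6.49% of all genes in either direction. Of the other 3 members, Egr2 had a log2 fold change of 0.08 (0.21), Egr3 of 0.12 (0.06) and Nr4a2 of 0.20 (0.07). Without FID replicate 4, the highest library of its group for Egr1, Egr2, Egr4, Nr4a2 and Nr4a3, only Nr4a1 of the 7 met the criterion. Egr1 also lost it without IS replicate 4, and Egr4 without IS replicate 1, IS replicate 3 or FID replicate 3.

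In males none of the 7 met the criterion in FID against IS, where 4.62% of 13851 genes did. None had an unadjusted p under 0.05, DESeq2 called none, and an adjusted p under 0.05 was found for 0% of all genes. The male values ran from -0.31 (standard error 0.19) for Egr4 to 0.06 (0.08) for Egr3. Between the sexes, the FID effect differed for Egr4 by -0.66 (0.26) with an unadjusted p under 0.05, as for 8.34% of 15138 genes. No member had an adjusted p under 0.05 for this difference, against 0.0396% of genes. Egr4 lost its unadjusted call without male IS replicate 4 or without female FID replicate 4, and without male IS replicate 1 there were 3 members with it.

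The combination of former iron deficiency and choline, FIDch against IS, gave no member at the criterion in either sex. The share of all genes that met it was 8.98% of 14662 in females and 6.12% of 13693 in males. No member had an unadjusted p under 0.05 or an adjusted one, where the adjusted p was under 0.05 for 0.907% of genes in females and 0.131% in males, and DESeq2 called none. Female log2 fold changes ran from -0.16 (standard error 0.21) for Nr4a1 to 0.31 (0.22) for Egr2, and male ones from -0.07 (0.16) for Egr4 to 0.29 (0.32) for Egr2. The large female standard error of Nr4a1 went with FIDch replicate 4, at 81.3 CPM where the others had 36.4 to 46.0 CPM. In this library CA1 markers summed to 1108 CPM, against 503 to 705 CPM in the other female FIDch libraries. Its neuron markers summed to 5403 CPM, against 6031 to 6269 CPM. The part of these markers was not tested. Without FIDch replicate 4, Nr4a1 met the criterion at -0.48, and its adjusted p was also under 0.05. Without FIDch replicate 1 or FIDch replicate 3, the single member at the criterion was Egr2 or Nr4a2. In males 3 members, Egr1, Egr2 and Nr4a1, met the criterion without IS replicate 4, all higher in FIDch. The FIDch effect differed between the sexes for none of the members at an unadjusted p under 0.05 or an adjusted one, where 13.9% and 0.362% of 15177 genes did. Leaving out male IS replicate 4, female FIDch replicate 3 or female FIDch replicate 4 gave 1 such member each at the unadjusted p.

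Choline after iron deficiency was compared as FIDch against FID. In females Egr1 was the single member at the criterion, lower in FIDch with a log2 fold change of -0.29 (standard error 0.12), where 12.7% of 14680 genes met it. No member had an adjusted p under 0.05, against 2.28% of genes, and DESeq2 gave no such member. Egr1 lost its call without any 1 of FID replicates 1, 2 and 4 and of FIDch replicates 1, 2 and 3. Without FIDch replicate 4, Egr1, Egr4 and Nr4a1 met the criterion, all lower in FIDch, and Egr1 at -0.43 also had an adjusted p under 0.05. In males no member met the criterion, where 13% of 13945 genes did, none had an unadjusted p under 0.05, none had an adjusted p under 0.05, where 1.28% of genes did, and DESeq2 called none. The male values were 0.55 (0.31) for Egr2, 0.28 (0.16) for Nr4a1, 0.22 (0.14) for Egr4 and 0.18 (0.09) for Egr1, and between -0.04 and 0.05 for the other 3. Without FID replicate 2 these 4 members met the criterion, all higher in FIDch, and without FIDch replicate 4 Nr4a1 did. In the 5 diet comparisons of groups in which no member had an unadjusted p under 0.05, 5.68% to 17.8% of all genes had one. The comparisons of ISch, FID and FIDch with IS share the same 4 IS libraries of their sex.

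With the 4 groups of a sex in a single model, all 7 members differed among the female groups at an unadjusted p under 0.05, as did 22.5% of 14975 genes, and 2 of them (Egr1 and Egr2) at an adjusted p under 0.05, as did 5.34% of genes. The number at the adjusted p was 1 without ISch replicate 2 or ISch replicate 4, and 4 without ISch replicate 1, FIDch replicate 3 or FIDch replicate 4. In males no member differed at either level, where 14.3% and 0.748% of 14314 genes did, and DESeq2 called none.

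The choline effect in formerly iron-deficient females, minus that in iron-sufficient females, was below 0 for all 7 members. It was -1.10 (standard error 0.32) for Egr2, -0.86 (0.26) for Egr4, -0.75 (0.15) for Egr1, -0.48 (0.18) for Nr4a2, -0.44 (0.14) for Nr4a3, -0.39 (0.09) for Egr3 and -0.34 (0.25) for Nr4a1 on the log2 scale. Except for Nr4a1, these had an unadjusted p under 0.05, as had 9.18% of all genes, and they kept it in each of the 16 fits without 1 library. None had an adjusted p under 0.05 by edgeR, as had 0.00668% of genes, while DESeq2 gave 2 (Egr1 and Egr3), and 0.395% of genes. Without FIDch replicate 4 the value of Nr4a1 was -0.66, and Egr1 had an adjusted p under 0.05. In males the same contrast ran from -0.21 (0.21) for Nr4a2 to 0.48 (0.59) for Egr2, with no member at an unadjusted p under 0.05 or an adjusted one by either tool, where 15.4% and 0.00699% of genes were. Without ISch replicate 3, Egr4 reached the unadjusted level. DESeq2 called no member in 11 of the 15 comparisons of groups or effects. In these it called 0.0144% to 5.57% of the genes to which it gave an adjusted p.

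Most of the members varied more between rats of 1 diet than the median gene. The biological coefficient of variation within groups was 37.4% for Egr2 in males, higher than or equal to that of 99.0% of the 14314 genes in the model. It was 22.2% for Nr4a1, 18.0% for Egr4 and 15.5% for Egr1, at 94.5%, 89.7% and 84.9% of the genes, with a median over all genes of 8.43%. Nr4a2 had 13.8% and Nr4a3 10.1%. In females the values were 21.0% for Egr2, 17.6% for Nr4a1 and 17.3% for Egr4, at 85.1%, 79.8% and 79.1% of 14975 genes. The trend over genes of like abundance was 17.9%, 7.44% and 15.1% for these 3 in females. In males it was 16.0% for Egr2, 8.51% for Nr4a1, 10.7% for Egr4 and 7.99% for Egr1. Nr4a2 with 12.2%, Egr1 with 10.6% and Nr4a3 with 9.68% were nearer the female median of 8.94%, at 66.5%, 59.1% and 54.6% of genes. Egr3 was the steadiest of the 7 in both sexes, with 7.23% in males and 6.64% in females, below the median gene.

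After the diet group means were removed, the 7 genes still went up and down together in males. All 21 pairs correlated positively over the 16 male libraries, with Pearson r from 0.43 to 0.91 and a median of 0.78. The highest value, 0.91, joined Egr1 and Nr4a1, and the lowest, 0.43, joined Egr3 and Nr4a1. In females 16 of the 21 pairs were positive, from -0.43 to 0.78 with a median of 0.34. Egr1 and Nr4a2 had the highest value there, and Nr4a1 and Nr4a3 the lowest. The libraries share depth and tissue makeup within each rat, and these values are a description with no test. A mean z score of the 7 genes, set to 0 over the 16 libraries of a sex, was highest in male ISch replicate 3 (1.62) and IS replicate 4 (1.33) and lowest in male IS replicate 1 (-1.13) and FID replicate 3 (-1.10), so that both ends of the male range held libraries of IS. In females it was 0.45 to 1.56 in ISch, -0.99 to -0.43 in IS, -0.29 to 0.61 in FID and -0.97 to 0.25 in FIDch. Only in ISch were all 4 female scores above 0.

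**Figure D3:**
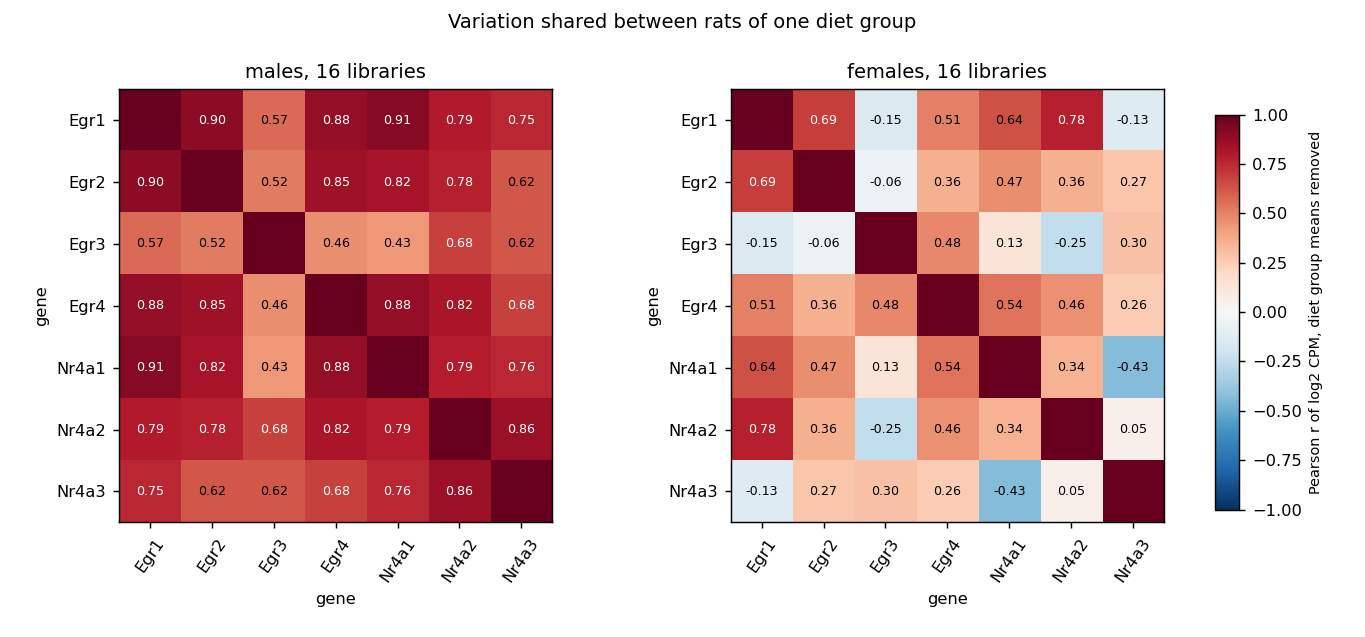
Pearson r between members over the 16 libraries of a sex, after subtraction of each diet group's mean log2 CPM (colour from -1 to 1, value printed in each cell). In males all 21 pairs are positive, up to 0.91 for Egr1 and Nr4a1, and in females 16 are, with Nr4a1 and Nr4a3 at -0.43.

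Genes with a pattern most like that of the members were sought among 13334 genes, by the lower of the male and the female Pearson r over 16 libraries each. For the mean z score the 8 leading genes were Arc, Etv5, Junb, Nab2, Bdnf, Dusp4, Erf and Dnajb5, with r of at least 0.74 for Arc and 0.64 for Dnajb5 in both sexes. Arc is a synaptic protein whose transcript is induced by activity, Junb is an AP-1 factor, Nab2 is a corepressor of Egr factors, Bdnf is a neurotrophin, and Dusp4 is a phosphatase that turns off MAP kinases. Among single members, Nr4a1 was closest to Arc (at least 0.87 in both sexes) and Sik1 (0.79), Egr4 to Junb (0.79) and Midn (0.71), Egr2 to Nab2 (0.74) and Ppp1r15b (0.73), and Egr1 to Etv5 and Arc (0.75 each). Egr3, with Gng7 (0.62) and Yy1 (0.61), Nr4a2, with Pou3f3 (0.72) and Arl4d (0.66), and Nr4a3, with AABR07019083.1 (0.66) and Fnbp1 (0.65), had neighbours outside this set. These values hold diet effects and rat to rat spread together, and they were selected as the highest of many.

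Other activity-induced genes were taken as a list of 18. For this and the later lists, 10.3% of all genes met the criterion in female ISch against IS and 6.47% in FID. It was 8.98% in female FIDch against IS and 12.7% in FIDch against FID. In males the shares were, in the same order, 8.06%, 4.62%, 6.12% and 13%. In female ISch against IS, 8 of the 18 met the criterion with higher levels and none with lower, and 2 had an adjusted p under 0.05, with a median log2 fold change of 0.24 over the 18. Bdnf had the largest change, 0.65 (standard error 0.07), from 33.6 to 37.4 CPM in IS to 53.2 to 65.7 CPM in ISch. Ier5, an immediate early gene, had 0.45 (0.13) and Per1, a clock gene that CREB also induces, had 0.44 (0.09). The other 5 were Arc, Gadd45b, Junb, Ptgs2 and Klf10. Fos, the gene most often used to mark active neurons, had -0.03 (0.26) in this comparison, Npas4 had 0.35 (0.24), and the median of all genes was near 0. In female FID against IS, 6 were higher and 2 lower, among them Npas4 at 1.01 (0.26), Sik1, a kinase that restrains CREB coactivators, at -0.62 (0.15) and Ier2 at 0.41 (0.13). In female FIDch against IS, 4 were higher and 1 lower, with Npas4 at 0.60 (0.23), Bdnf at 0.48 (0.07) and Ptgs2, the inducible cyclooxygenase, at 0.30 (0.06). In female FIDch against FID, 1 was higher, Bdnf at 0.22 (0.09), and 2 were lower, Fos at -0.69 (0.25) and Ier2 at -0.56 (0.12). The list medians in female FID against IS, FIDch against IS and FIDch against FID were 0.19, -0.02 and -0.03.

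In males the same list had no higher and 2 lower genes in ISch against IS, Nptx2, a secreted synaptic pentraxin, at -0.41 (standard error 0.09) and Ier5 at -0.24 (0.10). It had no gene at the criterion in FID against IS. In FIDch against IS, Per1 was higher at 0.39 (0.10) and Ier5 lower at -0.25 (0.08). In FIDch against FID, 3 were higher and 2 lower, led by Npas4 at -0.63 (0.22), Per1 at 0.43 (0.09) and Klf10 at 0.39 (0.14). Bdnf was not at the criterion in any of the 4 male comparisons.

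**Figure D4:**
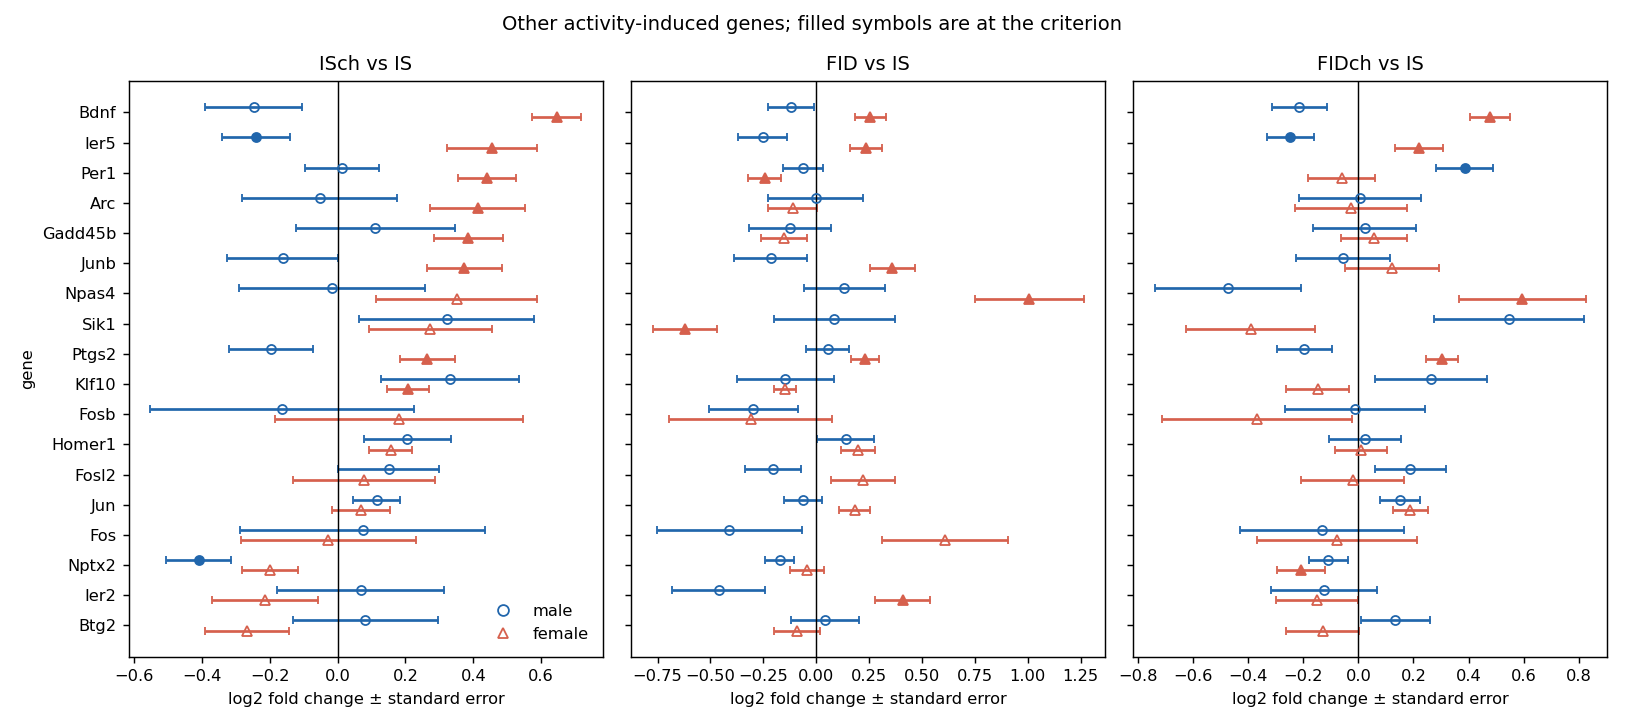
Log2 fold change against IS (x axis, with the standard error as a bar) of 18 other activity-induced genes in ISch, FID and FIDch, males as blue circles and females as red triangles, filled where the gene was at the criterion, in the order of the female ISch values. In female ISch 8 genes are filled, all to the right of 0, with Bdnf at 0.65, and in males 2 are filled there, both to the left.

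Of 16 upstream regulators in the tables, 4 were higher and 1 lower at the criterion in female ISch against IS, with a list median near that of all genes. Elk1, an SRF partner that MAP kinases activate, was higher by 0.66 (standard error 0.11), and Camk4, a kinase that acts on CREB, by 0.36 (0.12). Crebbp, a CREB coactivator, was lower at -0.30 (0.06). The other 2 higher genes were Mef2c and Mef2d. Elk1 was also higher in female FIDch, by 0.57 (0.15) against IS and by 0.56 (0.14) against FID. The part of these regulators in the members' fold changes was not tested. Crebbp was lower in female FIDch and FID against IS, at -0.38 (0.10) and -0.25 (0.05), along with Crtc2 at -0.25 (0.07) in FID. In males 1 regulator met the criterion in ISch against IS, Crebbp at 0.31 (0.11), none in FID or FIDch against IS, and 3 in FIDch against FID, Crtc2 at 0.24 (0.10), Mef2a at -0.22 (0.06) and Mef2c at -0.20 (0.06).

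Partners and feedback genes gave few calls. Of 5 partners and cofactors, Nab2 was higher at 0.29 (standard error 0.07) in female ISch against IS, with 41.3 to 49.7 CPM against 33.3 to 39.3 CPM in IS. In male FIDch against FID, Nab2 was higher at 0.29 (0.09) and Rxrb, a retinoid X receptor that can pair with Nr4a1 and Nr4a2, at 0.25 (0.06). In female FIDch against FID, Rxrg was lower at -0.38 (0.12). No gene of this list met the criterion in the other 5 diet comparisons. Of 5 phosphatases that limit MAP kinase signals, Dusp4 was higher in female ISch against IS at 0.40 (0.06), with 64.5 to 71.9 CPM against 48.7 to 57.3 CPM, and in FIDch against FID at 0.21 (0.08). In female FID against IS, Dusp5 was lower at -0.53 (0.13) and Dusp2 higher at 0.52 (0.21). In males Dusp2 was lower in FIDch against IS, at -0.64 (0.28), and Dusp5 higher in FIDch against FID, at 0.33 (0.14).

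Marker genes of hippocampal fields and nearby tissue also differed between the female groups. The dentate gyrus markers Dsp, Plk5, C1ql2 and Prox1, 4 of the 5 listed and all that were tested, were higher in ISch than in IS at the criterion and at the adjusted p. Their log2 fold changes were 2.87 (standard error 0.17), 0.52 (0.11), 0.51 (0.08) and 0.39 (0.07). The 5 markers summed to 284 to 328 CPM in female ISch and 201 to 230 CPM in IS. Of 4 cortex markers, 3 were also higher in ISch at the criterion, Tbr1 and Rorb among them, with a list median of 0.26. In bulk tissue, more cells of a type and more RNA per cell cannot be told apart. The part of these markers in the members' fold changes was not tested. In female FIDch the dentate markers were also higher than in IS, 4 of 4 tested at the criterion and 1 at the adjusted p. Their median log2 fold change was 0.39, against 0.51 in ISch, and the 5 markers summed to 255 to 309 CPM. In FIDch, Egr2 had 2.82 to 6.30 CPM and no member met the criterion against IS. In FID the sums were 208 to 233 CPM.

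The remaining lists gave few calls in female ISch against IS. The median log2 fold change was 0.46 over the 2 blood markers tested and -0.27 over the 2 choroid plexus markers tested. Of the CA1, neuron, striatum, thalamus, choroid plexus and blood markers none met the criterion, and of the CA2 and CA3 markers 1 was lower (Grik4). Male dentate sums lay between 199.8 and 256 CPM in all groups. In male ISch against IS, 2 dentate markers, C1ql2 and Plk5, were lower at -0.23 (standard error 0.09) and -0.30 (0.10). In female FID against IS, 1 of 4 markers of the thalamus list was higher, Slc17a6 at 0.70 (0.16). In the striatum list 1 of 5 was, Drd1 at 0.67 (0.15), and in the cortex list 2 of 4 were, Tbr1 among them at 0.35 (0.08). The medians of these lists were 0.05, 0.07 and 0.17, beside the members' calls in that comparison. In female FIDch against FID, the comparison in which Egr1 was lower, the markers moved in both directions. Of the dentate markers tested 3 of 4 were higher, Dsp at 2.95 (0.19), Plk5 at 0.40 (0.18) and Prox1 at 0.39 (0.05). Of the 6 CA2 and CA3 markers 1 was higher, Pcp4 at 0.26 (0.05). Only 3 of these 6 were above 0, with a list median of 0.01. In the thalamus list 2 of 4 were lower, Slc17a6 at -0.71 (0.12) and Prkcd at -0.34 (0.14), in the cortex list 2 of 4, Tbr1 at -0.44 (0.09) and Cux2 at -0.23 (0.08), and in the striatum list 1 of 5, Drd1 at -0.42 (0.12). In the female interaction, 2 of 4 cortex, 2 of 4 thalamus and 1 of 5 striatum markers were below 0 at the criterion, with Tbr1 at -0.66 (0.13), Slc17a6 at -0.74 (0.25) and Drd1 at -0.67 (0.23), and none of the dentate markers. An unadjusted p under 0.05 alone, without the limit on fold change, was found for 9.18% of all genes. Above 0 were 0 of the cortex, 2 of the thalamus and 1 of the striatum markers. The part of these markers was not tested either.

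**Figure D5:**
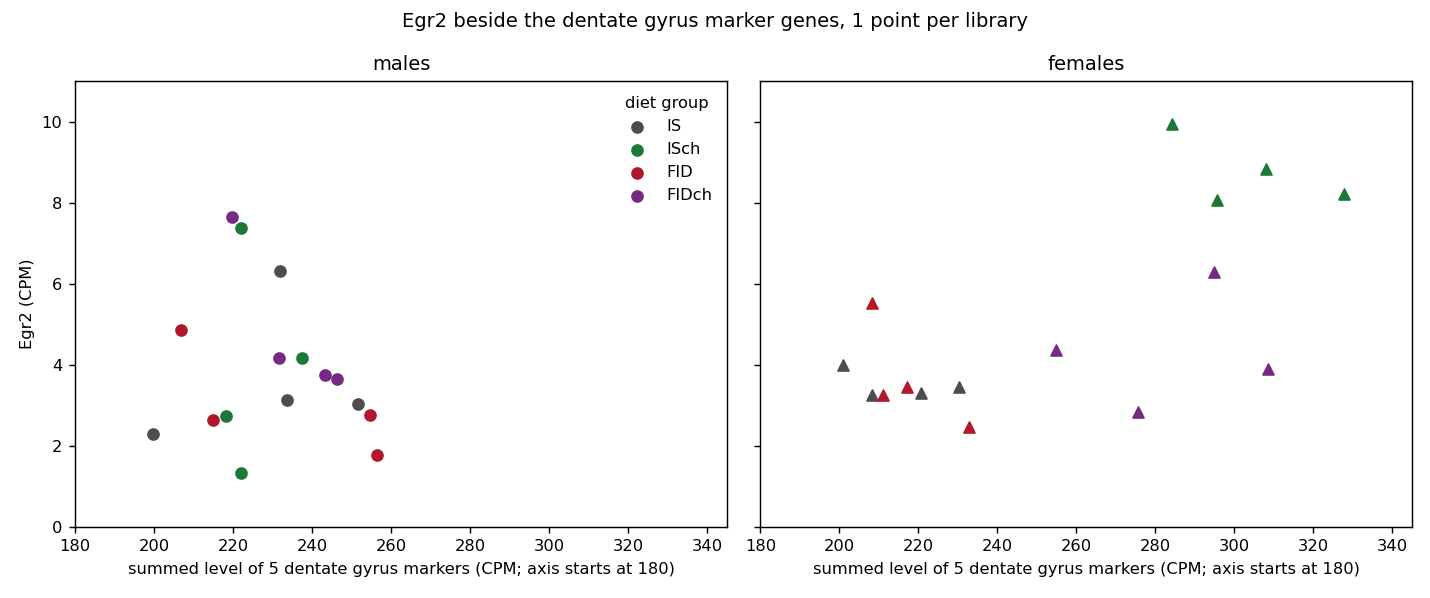
Egr2 level (CPM, y axis) against the summed level of 5 dentate gyrus markers (CPM, x axis from 180) in each library, males on the left and females on the right, coloured by diet group. Female ISch and FIDch libraries share the higher marker sums, 255 to 328 CPM, and Egr2 is at 8.06 to 9.93 CPM in ISch and at 2.82 to 6.30 CPM in FIDch.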

How the data were processed

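RNA of hippocampus was sequenced from 32 rats, 4 per sex and diet group, as 50-bp paired ends from TruSeq RNA v2 libraries, which keep no strand. The authors aligned the reads with HISAT2 to Rnor_6.0 and counted them per gene with featureCounts of the Subread package, after FastQC and Trimmomatic, as the submitters' processing notes list. They deposited raw counts per gene, without normalization. Annotation version and the treatment of reads that match several genes are not given in the sources used here. Reads of overlapping genes cannot be separated without strand. Samples were grouped by the labels' sex and diet, and 0 columns were left unmapped.

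Members were found by symbol, and the members, the lists and the alternatives were chosen with earlier results of these data known. Counts were fitted over all genes in R 4.3.3 with edgeR 4.0.16 (TMM, filterByExpr, glmQLFit and glmQLFTest), each pair of groups apart, as in the study's pairwise fits. The criterion was a log2 fold change over 0.2 in size with a p under 0.05, and edgeR's adjusted p-values are Benjamini-Hochberg over all genes tested. DESeq2 gives an adjusted p only to genes left after its own filter, and its shares are of those genes. Models of the 16 libraries of a sex gave the test over 4 groups and the interaction, and models of 16 libraries of both sexes gave the difference between sexes. Log2 CPM for correlations used a prior count of 2. Similar genes needed a mean of at least 1 CPM in both sexes and a symbol on a single row. The fits were tested on simulated data with known fold changes before use.

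All 7 members are named. Of the lists (other activity-induced genes, upstream regulators, partners and cofactors, feedback phosphatases), the genes at the criterion are named, up to 3 per list and comparison by size, and others were added after their values were seen: Fos, Npas4, and the remaining calls in female ISch. Marker lists (dentate gyrus, CA1, CA2 and CA3, neurons, cortex, striatum, thalamus, choroid plexus, blood) are named where a marker moved with a result, and some marker results are not reported here. Alternatives were RLE size factors, no filter on low counts, DESeq2 1.42.0, a single fit of all 4 groups of a sex, a replicate block, the male libraries without those whose names have another form, and each library left out in turn. The edgeR p-values set a group difference against the spread between the 4 rats of each group, which edgeR moderates over all genes. Promoter sequences are from RefSeq (GRCr8). Counting intervals cover counting error only.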

Additional observations from a re-analysis of the deposited data

Results flagged for a closer look

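In 3 of 56 groups of 4 libraries a single library stood apart from the others, by Dixon's criterion at 95%, where chance alone gives about 1 group in 20. These were Egr2 in male FIDch replicate 2 (7.63 CPM, on 27 counts), Nr4a1 in male IS replicate 4 (73.7 CPM) and Nr4a3 in female FID replicate 4 (100.2 CPM), each the highest of its group.

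The effect of choline differed between formerly iron-deficient and iron-sufficient females for 6 members at an unadjusted p under 0.05 from edgeR, by -0.75 for Egr1, -1.10 for Egr2, -0.39 for Egr3, -0.86 for Egr4, -0.48 for Nr4a2 and -0.44 for Nr4a3 on the log2 scale. No adjusted p over all genes was under 0.05, and 9.18% of all genes had such an unadjusted p.

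The ISch effect differed between males and females for Egr2 (-1.24) and Egr4 (-0.81), and the FID effect for Egr4 (-0.66), on the log2 scale and at an unadjusted p under 0.05 with no adjusted p under 0.05. Sex and sequencing batch cannot be told apart in these values.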

How the results depend on the processing

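Of 420 log2 fold changes of members under other settings, none moved by more than the SD between rats within groups and 6 by more than their standard error. Of 1008 with 1 library left out, 26 moved by more than their standard error and 67 changed sign, none of the latter for a member called in the main fit. Nr4a1 in female FIDch against FID changed sign, to -0.21, and met the criterion without FIDch replicate 4. By more than the SD between rats, 2 moved: the female interaction of Nr4a1, to -0.66 without FIDch replicate 4, and the difference between the sexes in the FID effect of Nr4a1, to 0.41 without male IS replicate 4. The number of members at the criterion in female ISch against IS was 7 under every setting. With an adjusted p it was 4, and 7 with DESeq2 (4.7% of genes), 2 with the replicate block, and 2 to 5 with 1 library left out. In female FID against IS, the 4 members at the criterion became 2 with the 4 groups in one fit and 1 to 5 with 1 library left out, and the 0 with an adjusted p became 2 with DESeq2. In female FIDch against IS, 0 to 1 members met the criterion and 0 to 1 had an adjusted p with 1 library left out. In female FIDch against FID these ranges were 0 to 3 and 0 to 1. Over the 4 female groups, the 2 members with an adjusted p became 4 without the filter on low counts, 6 with DESeq2 (11.1% of genes) and 4 with the replicate block, and 1 to 4 with 1 library left out. For the female interaction the 0 with an adjusted p became 2 with DESeq2 and 0 to 1 with 1 library left out.

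In males, with 1 library left out, 0 to 1 members met the criterion in ISch against IS, 0 to 3 in FIDch against IS and 0 to 4 in FIDch against FID, and 0 to 1 had an interaction. In FIDch against FID there was also 1 without the filter on low counts and 3 with the replicate block. Between the sexes, 0 to 5 members differed in the ISch effect (0 to 1 at an adjusted p), 0 to 3 in the FID effect and 0 to 1 in the FIDch effect with 1 library left out. The cause of these changes was not tested. Egr2 had the lowest counts of the members in males, 11 to 59 per library, and the part of depth was not tested either.

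Replicate numbers did not pair the libraries. Deviations from the group means of libraries with the same number had a correlation over 0.1 in 3 of 24 male and 1 of 24 female pairs, with ranges of -0.15 to 0.22 and -0.13 to 0.15, so the replicate block is only an alternative.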
